A study of Arabidopsis thaliana with 12 samples.

Results

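Calmodulin-like (CML) proteins are small calcium sensors of plants. Each binds calcium through EF-hand loops, changes its shape and passes the signal to other proteins, and their genes are known as early targets of touch, wounding, pathogens, drought and low oxygen. Described here are the 7 Arabidopsis thaliana genes with a symbol of CML and digits whose probe set the platform's probe table pairs with 1 gene, of 13356 genes tested. They are CML23 (AT1G66400), CML30 (AT2G15680), CML37 (AT5G42380), CML38 (AT1G76650), CML41 (AT3G50770), CML42 (AT4G20780) and CML43 (AT5G44460). Each was read by a single probe set. RefSeq's table (assembly TAIR10.1) gives a CML name, as symbol or synonym, to 14 genes, so the 7 are part of a larger family. Of the others, only AT1G76640 also had a probe set listed with 1 gene. It is no member by its symbol and is described among the other observations.

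RNA of whole seedlings aged 14 days was hybridised to single-colour Affymetrix arrays, with 3 biological replicates in each of 4 groups. The groups were slim1-1 seedlings on 100 µM cadmium, wild-type Col-0 seedlings on 100 µM cadmium, slim1-1 seedlings on 20 µM arsenite, As(III), and wild-type Col-0 seedlings on 20 µM arsenite, all grown on minimal medium. SLIM1, an EIN3-like transcription factor, controls much of how plants respond to sulfur shortage, and slim1-1, the only mutant line here, carries a mutant allele of it. The labels' protocols give 12 days without metal and then 48 h on arsenite, in the same words for the cadmium samples, so the time on cadmium is not known, and no seedlings without metal were analysed here. In whole seedlings, fewer cells that express a gene and less of its RNA per cell cannot be told apart.

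The values are log2 signals after RMA, the usual background correction, normalization and summary of Affymetrix probe sets. The median over the tested genes lay at 5.06 to 5.12 on the 6 cadmium arrays and at 6.39 to 6.48 on the 6 arsenite arrays, so the metals form separate sets of values. The genotypes are compared within a set, where the step cancels, and positions on an array are given as percentiles among the tested genes. The lowest correlation across genes between replicates of the same group was 0.992. The shoot genes RCA and LHCB4.1 and the root gene PYK10 averaged above the 99.8th percentile in every group, so transcripts of shoot and root were both present. The other measured markers, EXPA7 and EXPA18 of root hairs and FAMA of guard cells, averaged from the 35.4th to the 54.1st percentile. The mutated gene itself was not analysed here by name. A difference was called at an adjusted p under 0.05 (limma, 1 model over the 12 arrays, Benjamini-Hochberg over all 13356 genes), and with 3 arrays a group the number of arrays limits the precision.

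Under cadmium, 3 of the 7 CML genes differed between slim1-1 and wild type. CML37 and CML42 rose in the mutant and CML41 fell, by 1.42, 0.41 and 1.08 on the log2 scale. Of all genes tested, 12.3% were called under cadmium (6.62% higher and 5.71% lower). In limma, 4 of the 7 had an unadjusted p under 0.05 there, against 26.1% of all genes. The median difference of the 7 genes was 0.32, against -0.01 over all genes, and their median size of a difference, whatever its sign, was 0.41, against 0.11. Their median standard error was larger too (0.16 against 0.09), and the genes were chosen with earlier results of these data known.

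CML37 has been tied to defence against insects, jasmonate signalling and drought. On the 3 slim1-1 cadmium arrays (replicates 1 to 3) it had log2 signals of 4.09, 5.15 and 5.20, and on the wild-type cadmium arrays 3.42, 3.43 and 3.33. The groups did not overlap (31.2% of all genes had groups apart under cadmium, 15.6% with the mutant higher), and mutant replicate 1 lay well below the other two. The difference was 1.42 ± 0.22 (SE, n = 3 arrays per genotype, adjusted p = 0.00156), a 2.67-fold rise, with a 95% interval of 0.94 to 1.9. The wild-type mean, 3.39, was close to the lower quartile of those arrays (3.09 on average) and at the 31.8th percentile. Whether it exceeded background cannot be read from these values, which leaves the fold imprecise. The mutant mean of 4.81 ± 0.63 (SD) lay at the 47.2nd percentile. The call held in each of the 22 alternatives tried, with adjusted p of 4.92e-06 to 0.0102. Leaving out mutant replicate 1 gave the largest value, 1.78.

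**Figure D1:**
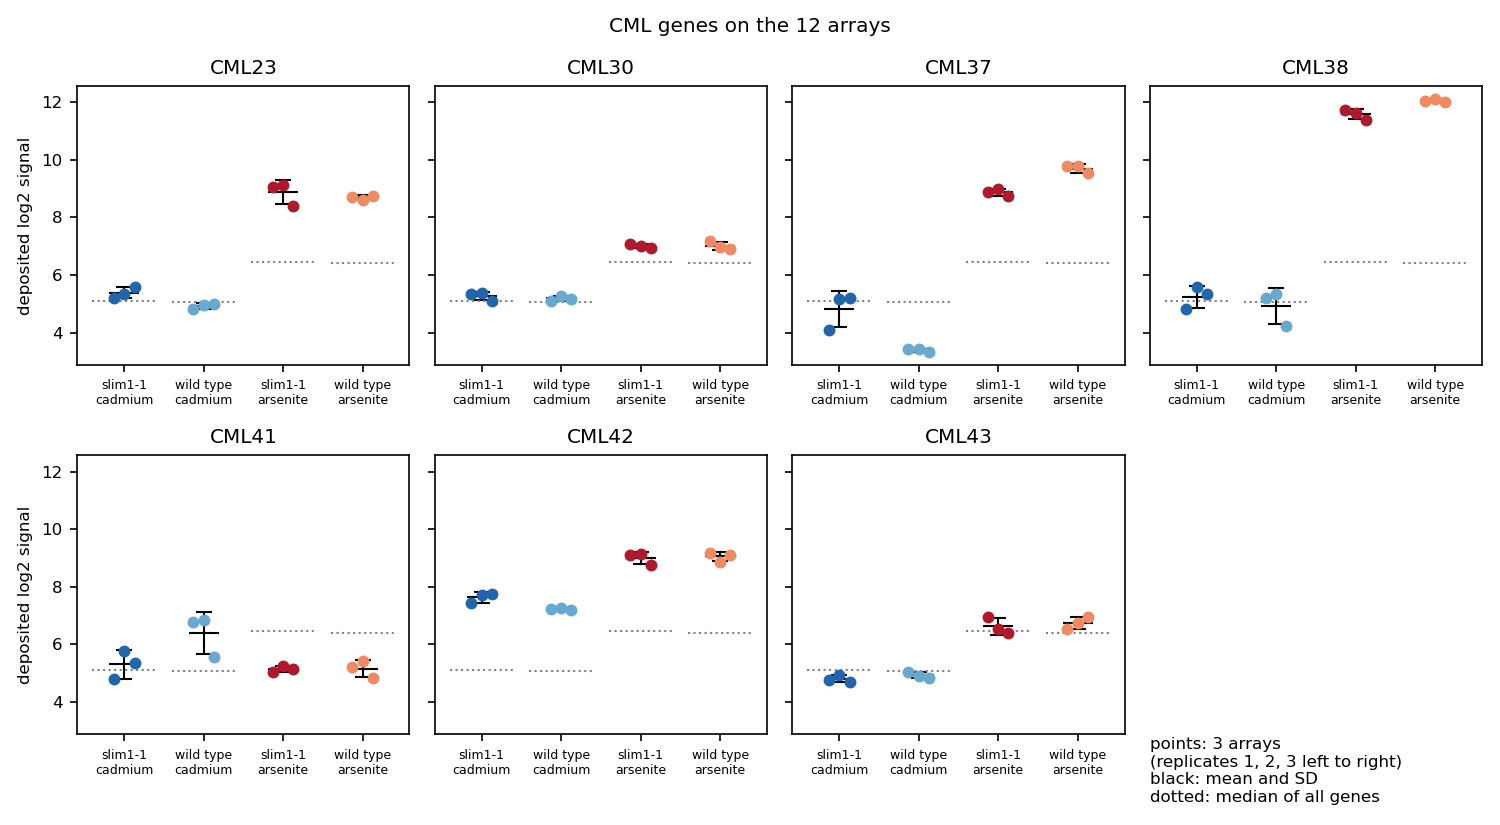
Deposited log2 signal (vertical axis) of the 7 CML genes in slim1-1 and wild-type seedlings on cadmium and on arsenite. Coloured points are the 3 arrays of a group, black bars the mean and SD, and dotted lines the median of all tested genes in the group; CML37 is higher in slim1-1 under cadmium (means 4.81 and 3.39) and lower under arsenite (8.87 and 9.70).

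CML42, which acts in trichome branching and damps jasmonate-dependent defence, varied less. It had 7.43, 7.71 and 7.77 in slim1-1 under cadmium, against 7.21, 7.26 and 7.20 in wild type. All mutant arrays lay above all wild-type arrays, and the wild-type values were within 0.058 of each other. The difference was 0.41 ± 0.12 (adjusted p = 0.0387), a 1.33-fold rise. That call ended in 9 of 22 alternatives, with adjusted p of 0.0504 to 0.129, among them leaving out any wild-type cadmium array or mutant cadmium replicate 2 or 3.

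CML41, a protein of plasmodesmata that acts in their closure during immune responses, moved the other way. It had 4.79, 5.78 and 5.36 in slim1-1 under cadmium and 6.77, 6.86 and 5.56 in wild type. The groups overlapped, because mutant replicate 2 was above wild-type replicate 3, which lay 1.20 below the nearest other wild-type array. CML41 fell by 1.08 ± 0.31 (adjusted p = 0.0377), a 2.12-fold lower mean signal with a 95% interval of -1.75 to -0.42. The call ended in 8 of 22 alternatives, among them leaving out mutant cadmium replicate 1 or 3 or wild-type cadmium replicate 1 or 2 (adjusted p 0.075 to 0.143). Without wild-type replicate 3 the difference was larger, -1.50.

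The other 4 members did not pass under cadmium. CML23, which with its close relative CML24 acts in flowering time, had 5.22, 5.34 and 5.60 in slim1-1 and 4.82, 4.96 and 5.0 in wild type. Its groups did not overlap, yet the difference of 0.46 ± 0.16 had an adjusted p of 0.0906. It passed in the 6 cadmium arrays alone (adjusted p = 0.0274), with array weights (0.0323) and without mutant arsenite replicate 3 (0.00876), the array that widened the gene's estimated spread. It did not pass in the other 19 of 22 alternatives, where the adjusted p reached 0.252.

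CML38, a protein induced by low oxygen that is found in stress granules, had 4.82, 5.58 and 5.35 in slim1-1 under cadmium and 5.21, 5.35 and 4.22 in wild type. These values overlapped widely, with the lowest on wild-type replicate 3. The difference was 0.32 ± 0.25 (adjusted p = 0.456), its interval of -0.22 to 0.87 leaves room for a change in either direction, and without wild-type replicate 3 it was -0.03. CML30, reported to be targeted to mitochondria, ranged from 5.10 to 5.38 in slim1-1 and from 5.09 to 5.29 in wild type. Its difference was 0.09 (95% interval -0.12 to 0.29, adjusted p = 0.615). CML43, known from immune responses, ranged from 4.71 to 4.95 in slim1-1 and from 4.85 to 5.05 in wild type. Its difference was -0.13 (95% interval -0.43 to 0.16, adjusted p = 0.6).

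Among tissue markers none passed under cadmium, yet the root hair expansin genes EXPA7 and EXPA18 differed by 0.41 and 0.50 (adjusted p = 0.139 and 0.138), close in size to the differences of CML42 (0.41) and CML23 (0.46). The other markers differed less, PYK10 by 0.09 (0.488), the guard cell gene FAMA by -0.32 (0.115), RCA by -0.04 (0.7) and LHCB4.1 by 0.07 (0.509). Under arsenite no marker passed in limma either. FAMA differed there by -0.42 (adjusted p = 0.143), and the other markers by -0.11 (RCA) to 0.05 (PYK10). Of these lists, 3 of 9 root and 3 of 11 shoot members were measured, and their part in the CML differences was not tested.

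Under arsenite, none of the 7 CML genes passed in limma, 1 (CML37) had an unadjusted p under 0.05 (12.8% of all genes), and 1.05% of all genes were called (0.457% higher and 0.591% lower). The median difference of the 7 was -0.04, against 0.01 over all genes. The largest differences were those of CML37 and CML38, both lower in slim1-1.

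CML37 had 8.88, 9.0 and 8.74 in slim1-1 under arsenite and 9.79, 9.77 and 9.53 in wild type. All mutant arrays lay below all wild-type arrays, as for 8.25% of all genes (18.2% had groups apart under arsenite, 9.95% with the mutant higher), and the spread within each group (SD 0.13 and 0.14) was small beside the gap. The difference was -0.83 ± 0.22 (95% interval -1.31 to -0.35), with an unadjusted p of 0.00265 and an adjusted p of 0.106. The estimate of spread is shared by the 4 groups, and for CML37 the widest group was slim1-1 under cadmium (SD 0.63). With mutant cadmium replicate 1 left out, the same difference of -0.83 had a standard error of 0.09 and passed (adjusted p = 0.0018). It also passed with array weights (-0.76, adjusted p = 0.0192), and in the 6 arsenite arrays alone (adjusted p = 0.0451). In all it passed in 4 of 22 alternatives and did not pass in 18, where the adjusted p reached 0.302.

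CML38 was among the brightest probe sets under arsenite, at the 98.6th percentile in slim1-1 and the 99.2nd in wild type. It had 11.73, 11.63 and 11.40 in slim1-1, against 12.06, 12.12 and 12.00 in wild type. The groups did not overlap, and the difference of -0.48 ± 0.25 did not pass (adjusted p = 0.458). It stayed negative in all 22 alternatives, with adjusted p of 0.0586 to 0.704.

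The remaining members had means within 0.18 of each other between the genotypes under arsenite. CML23 had 9.07, 9.14 and 8.39 in slim1-1 and 8.71, 8.62 and 8.76 in wild type, a difference of 0.17 ± 0.16 with mutant replicate 3 apart from the rest (adjusted p = 0.737). CML41 ranged from 5.04 to 5.25 in slim1-1 and from 4.85 to 5.43 in wild type (difference -0.01, 95% interval -0.68 to 0.65, adjusted p = 0.992). CML42 ranged from 8.77 to 9.15 in slim1-1 and from 8.87 to 9.17 in wild type (-0.04, 95% interval -0.30 to 0.21, adjusted p = 0.936). In all 3 genes the groups overlapped. CML43 ranged from 6.40 to 6.95 in slim1-1 and from 6.55 to 6.96 in wild type (-0.13, 95% interval -0.42 to 0.17, adjusted p = 0.782), and CML30 from 6.95 to 7.07 and from 6.90 to 7.17 (0.00437, 95% interval -0.20 to 0.21, adjusted p = 0.992). For CML30, CML41 and CML42 the sign of this difference was not stable, since it turned in 6, 4 and 3 of 22 alternatives.

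**Figure D2:**
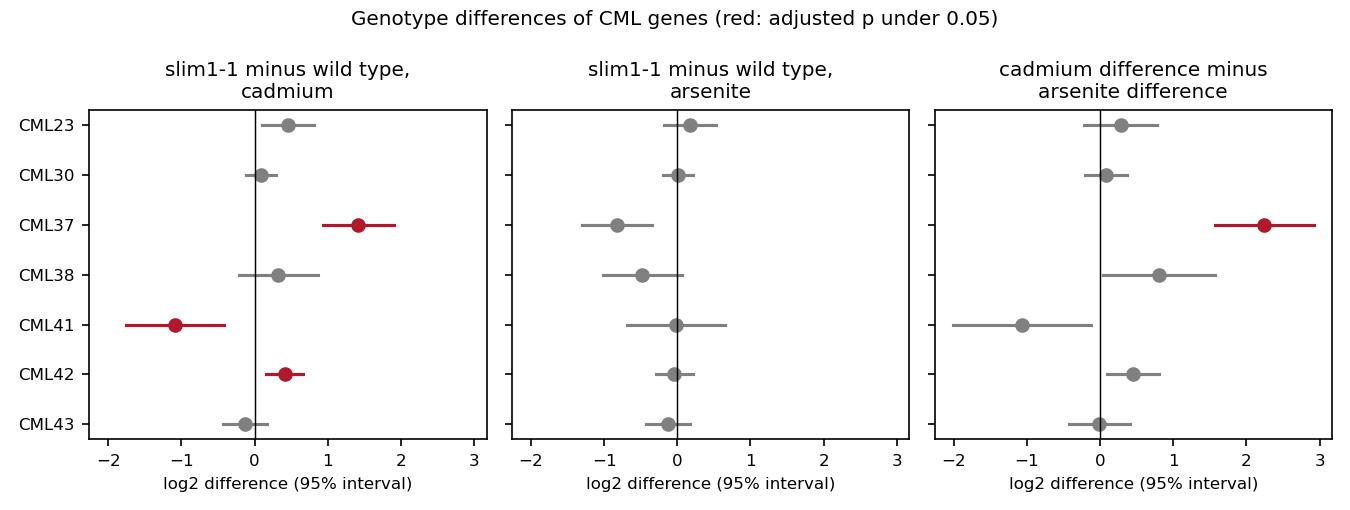
Differences of the 7 CML genes on the log2 scale (horizontal axis, points) with 95% intervals (lines): slim1-1 minus wild type under cadmium, the same under arsenite, and the first minus the second. Red marks an adjusted p under 0.05; 3 genes are red under cadmium, 0 under arsenite, and CML37 (2.24) in the third panel.

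Whether the genotype difference itself differed between the metal sets was tested as the interaction, the cadmium difference minus the arsenite difference. Metal, dose, set of arrays and the unknown time on cadmium cannot be told apart in it. Only CML37 passed among the 7, at 2.24 ± 0.31 (adjusted p = 0.00195, limma, SE over 4 groups of 3 arrays), where 4.3% of all genes were called (2.19% positive and 2.1% negative). It stood 5th among the 13356 genes by the size of a positive interaction. That size is imprecise, since its wild-type signal under cadmium was low (mean 3.39). The call held in all 21 alternatives (2.05 to 2.61, adjusted p 2.08e-06 to 0.00883). CML37 was thus higher in slim1-1 under cadmium on all arrays and lower in slim1-1 under arsenite on all arrays, although only the first difference passed on its own.

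In limma, 4 of the 7 members had an unadjusted p under 0.05 in the interaction, against 18.5% of all genes. The members were chosen with earlier results of these data known. CML38 had the same pair of signs as CML37 with an interaction of 0.80 ± 0.35 (unadjusted p = 0.0418, adjusted p = 0.248), and CML42 had 0.45 ± 0.17 (adjusted p = 0.162). CML41 had -1.07 ± 0.43 (adjusted p = 0.208). It passed only without wild-type cadmium replicate 3 (-1.49, adjusted p = 0.0319) and in an alternative chosen after seeing the data, without that array and mutant cadmium replicate 1 (-1.23, adjusted p = 0.0281). CML23 (0.29 ± 0.23, adjusted p = 0.57), CML30 (0.08 ± 0.13, adjusted p = 0.807) and CML43 (-0.01 ± 0.19, adjusted p = 0.99) did not pass. Thus the tests do not show that the genotype differences of CML41 and CML42, called under cadmium alone, differed between the metal sets.

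Levels under the 2 metals are given only as a description, because metal, dose and set of arrays cannot be told apart. The difference between cadmium and arsenite arrays was taken for each gene, and its median over all genes was -1.16 in slim1-1 and -1.14 in wild type on the log2 scale. The values below are relative to that median, called the median gene here. CML38 lay 5.17 lower under cadmium in slim1-1 and 6.0 lower in wild type, the 12th and 8th lowest of 13356 genes. Its mean signal was at the 51.7th percentile in slim1-1 and the 48.8th in wild type under cadmium, against the 98.6th and 99.2nd under arsenite. CML37 lay 2.90 lower in slim1-1 and 5.17 lower in wild type (106th and 15th lowest). Its mean was at the 47.2nd percentile in slim1-1 and the 31.8th in wild type under cadmium, against the 83.9th and 91.2nd under arsenite.

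CML23 lay 2.32 lower under cadmium in slim1-1 and 2.63 lower in wild type. CML30 (0.58 and 0.69 lower), CML43 (0.66 and 0.68 lower) and CML42 (0.22 and 0.69 lower) differed less between the sets. CML41 alone of the 7 was higher under cadmium relative to the median gene, by 1.32 in slim1-1 and by 2.37 in wild type, which placed it at the 97.9th and 99.6th percentile of such differences. After quantile normalization over the 12 arrays all 14 of these differences kept their sign, with CML41 at 1.49 and 2.55 and CML38 at -5.14 and -5.87. Relative to the medians of the arrays, which differ by more, all 14 signs were also the same, but CML42 lay 0.024 lower in slim1-1 and 0.48 lower in wild type. Both of these alternatives were chosen after the data were seen.

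**Figure D3:**
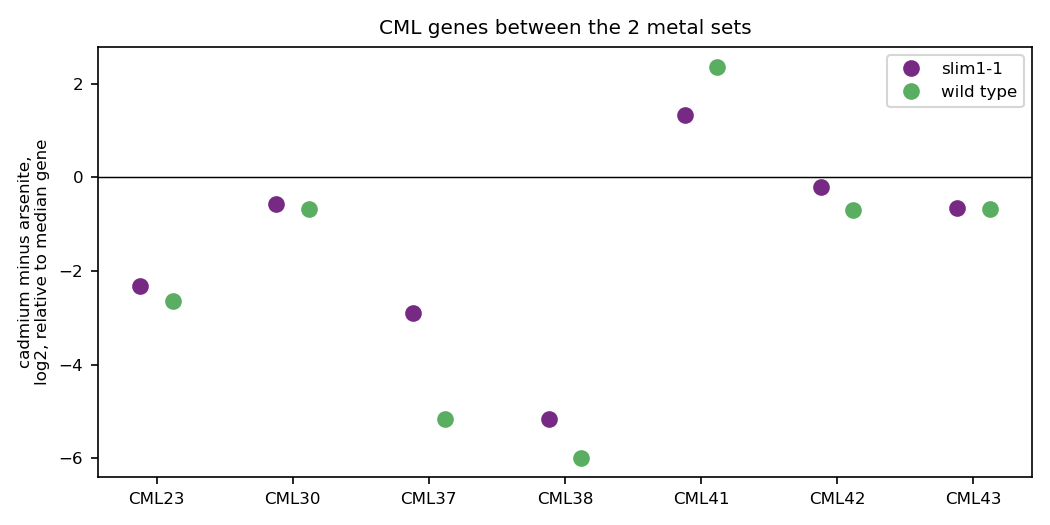
Cadmium minus arsenite, on the log2 scale and relative to the median gene (vertical axis), for the 7 CML genes in slim1-1 (purple) and wild type (green), without error bars because the metals are separate sets. CML38 is lowest (-5.17 and -6.0) and CML41 is the only gene above 0 (1.32 and 2.37).

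The members varied together in part. The correlations that follow are over the 12 arrays, after the mean of each metal set of 6 was subtracted, and are given as a description, since the arrays share genotype differences. CML37 had r of 0.79 with CML42, 0.66 with CML38, 0.52 with CML23 and -0.38 with CML41. By r with CML37, CML38 stood only 531st among the genes compared. CML23 and CML42 had the highest r of the 21 pairs, 0.86, whereas CML43 had r between -0.12 and 0.32 with the other members. CML23 and CML42 each had their lowest arsenite value on mutant replicate 3 (8.39 and 8.77), and how much that array adds to their r was not tested. When the mean of each of the 4 groups was subtracted instead, CML38 and CML41 had the highest r, 0.93, against 0.33 before. Both were low on the same cadmium arrays, mutant replicate 1 (4.82 and 4.79) and wild-type replicate 3 (4.22 and 5.56). With the group means subtracted, the r of CML37 and CML41 also turned, from -0.38 to 0.59. The genes closest to CML37 by r over the 12 arrays, of 10016 compared, were TPP2, the gene of tripeptidyl peptidase II (0.97), AT3G62260 (0.95), AT5G10695 (0.93), AT1G76600 (0.93) and AT5G09570 (0.93). All 5 were lower in slim1-1 under arsenite (by 0.11 to 0.49) and higher under cadmium (by 0.14 to 1.07), which their choice by likeness to CML37 largely fixes and which is given without a test. Those closest to CML38 were AT1G13340 (0.90), the glutaredoxin gene GRXC2 (0.86), AT5G12010 (0.86), AT4G24380 (0.85) and AT3G29760 (0.85).

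**Figure D4:**
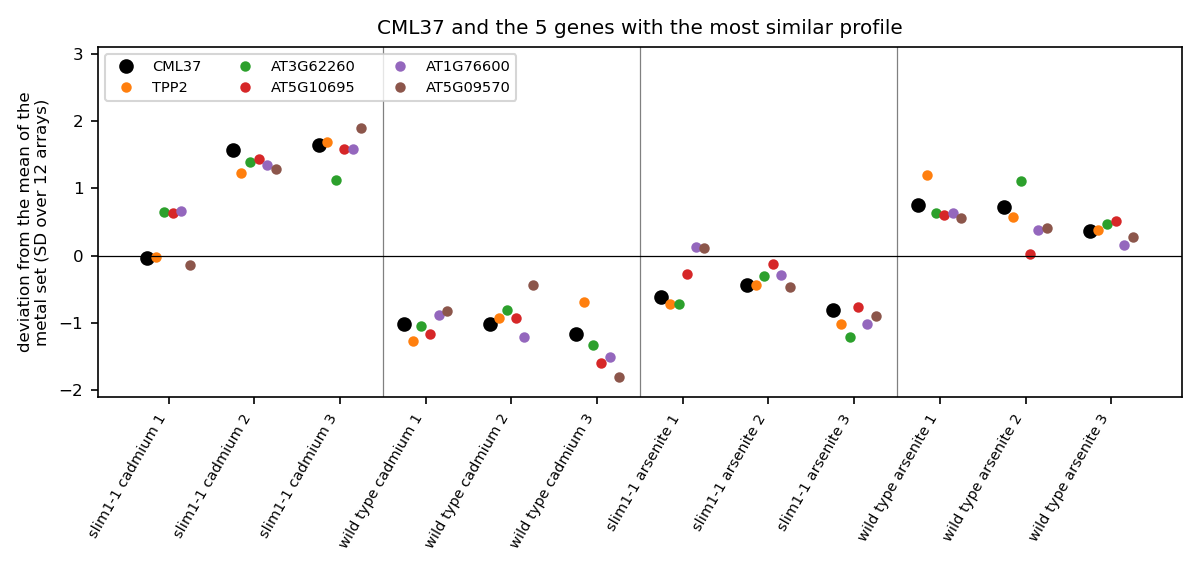
Deviation of CML37 (black) and of the 5 genes most like it (colours) from the mean of their metal set on each of the 12 arrays, in SDs of each gene over the arrays (vertical axis). The wild-type arsenite arrays and slim1-1 cadmium replicates 2 and 3 lie at or above 0, and the wild-type cadmium arrays lie below it.

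Other genes of calcium signalling were taken from lists of calmodulins, calcium-dependent kinases, CBL and CIPK proteins, calmodulin-binding regulators, channels, and pumps and exchangers. None of the 7 calmodulins or 34 calcium-dependent kinases had a probe set listed with 1 gene, nor did any gene with a CBL, CIPK, ACA, ECA or CAX name, so these classes were not measured. Of 32 calmodulin-binding regulators 12 were measured, all of the IQD family, whose IQ motifs bind calmodulin. Under cadmium 0 of these rose and 1 fell, IQD22, with a median of -0.03 over the 12 (12.3% of all genes were called). In limma, 4 of the 12 had an unadjusted p under 0.05 under cadmium (26.1% of all genes), 3 under arsenite (12.8%) and 0 in the interaction (18.5%). IQD27 averaged no higher than the 10.4th percentile in any group, so signal near background may hide a difference of that gene. IQD22 had 6.13, 6.21 and 6.42 in slim1-1, against 7.02, 7.02 and 6.79 in wild type, and fell by 0.69 ± 0.11 (adjusted p = 0.00204). Under arsenite it differed by -0.36 ± 0.11 (adjusted p = 0.164), and its interaction of -0.33 ± 0.16 did not pass (adjusted p = 0.299).

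Of 43 channel genes 8 were measured, all GLR genes, which encode glutamate receptor-like channels. In limma 0 of the 8 passed in either metal or in the interaction, with 1 at an unadjusted p under 0.05 under cadmium (26.1% of all genes), 1 under arsenite (12.8%) and 0 in the interaction (18.5%). Their differences ran from -0.29 (GLR1.2) to 0.08 (GLR3.5) under cadmium and from -0.16 (GLR1.2) to 0.37 (GLR2.7) under arsenite. Among them, GLR3.3 and GLR3.6, which carry wound signals between leaves, differed by -0.05 and 0.03 under cadmium (adjusted p = 0.689 and 0.882) and by -0.11 and 0.01 under arsenite (0.587 and 0.987). GLR2.9 averaged below the lower quartile in every group (2.70 and 2.77 under cadmium, 4.05 and 3.99 under arsenite, slim1-1 first). GLR2.8 did so under cadmium (2.68 and 2.92). Signal near background may hide differences of these genes.

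Of 21 rapid touch and wound response genes 3 were measured, and under cadmium 1 rose, 1 fell and 1 did not pass. Of all genes, 12.3% were called under cadmium. ZAT10, a zinc finger repressor induced by many stresses, had 7.83, 8.39 and 8.22 in slim1-1 under cadmium and 6.98, 6.99 and 6.87 in wild type, a rise of 1.20 ± 0.11 (adjusted p = 5.26e-05). Its groups did not overlap (31.2% of all genes had groups apart), and mutant replicate 1 was again the lowest mutant array, as for CML37 and CML42. ORA47, a factor that activates jasmonate synthesis genes, had 3.89, 4.05 and 3.65 in slim1-1 under cadmium and 5.39, 4.82 and 4.70 in wild type. All mutant arrays lay below all wild-type arrays, as for 15.6% of all genes, and ORA47 fell by 1.11 ± 0.16 under cadmium (adjusted p = 0.000797). Its mutant mean there, 3.86, was at the 38.3rd percentile, so signal near background may limit the size. WRKY53 differed by -0.24 ± 0.27 (adjusted p = 0.649). Under arsenite 0 of the 3 passed in limma (1.05% of all genes) and 0 had an unadjusted p under 0.05 (12.8% of all genes). The interaction of ZAT10 was 1.35 ± 0.16 (adjusted p = 0.00071), in the direction of CML37, and that of ORA47 was -0.87 ± 0.22 (adjusted p = 0.0438), in the opposite direction. Of all genes, 4.3% were called in the interaction. The ORA47 interaction was lost in 13 of 21 alternatives (highest adjusted p 0.106), among them each single-array omission except those of mutant arsenite replicate 3 and wild-type cadmium replicate 3. HRA1, the only measured gene of 13 in the low-oxygen list, differed by -0.19 ± 0.11 under cadmium and by 0.13 ± 0.11 under arsenite (adjusted p = 0.333 and 0.709). In slim1-1 and wild type, HRA1 averaged 3.27 and 3.46 under cadmium and 4.32 and 4.19 under arsenite. These means were close to the lower quartiles (3.05 and 3.09, 4.28 and 4.31), so signal near background may hide a difference. Between the metal sets, ZAT10, ORA47 and WRKY53 had mean signals in slim1-1 and wild type of 8.15 and 6.95, 3.86 and 4.97, and 5.14 and 5.38 under cadmium, against 12.81 and 12.96, 11.38 and 11.61, and 9.48 and 9.31 under arsenite, lower under cadmium by more than the median gene, as were CML37 and CML38.

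**Figure D5:**
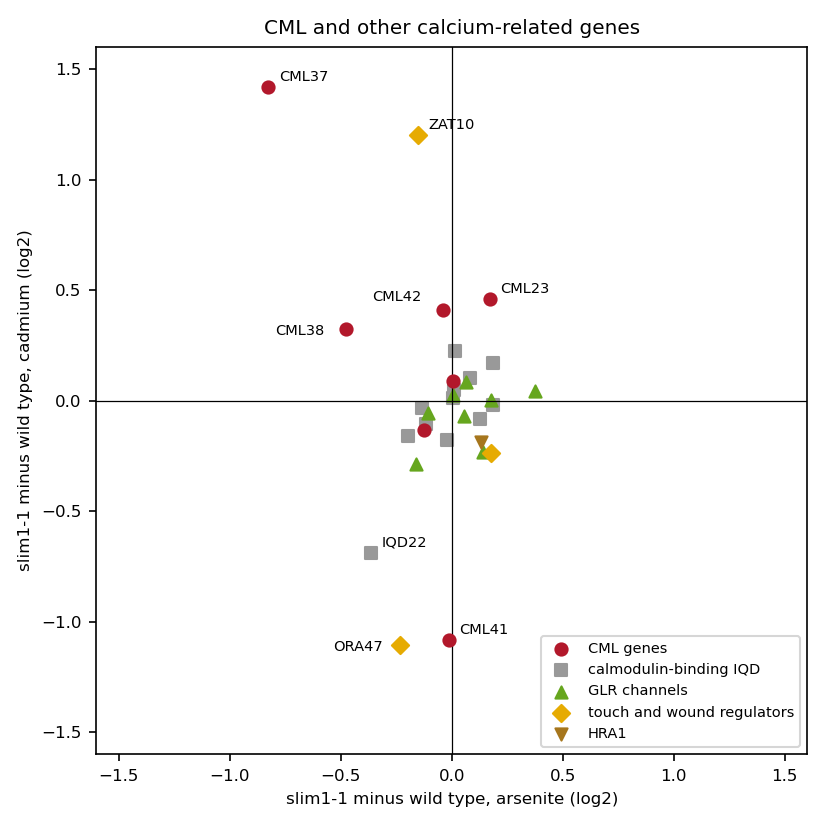
Difference between slim1-1 and wild type on the log2 scale under arsenite (horizontal axis) and cadmium (vertical axis) for the 7 CML genes (red circles) and the 24 measured genes of the calcium, touch and low-oxygen lists. CML37 lies at -0.83 and 1.42, ZAT10 at -0.15 and 1.20, and CML41 at -0.01 and -1.08.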

How the data were processed

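Signals of single-colour Affymetrix arrays were deposited by the authors as log2 values made with RMA, per the submitters' processing notes. The sources used here do not give its version, annotation or options. Of 22810 probe sets, 64 controls were left out, and the probe table listed 13513 with 1 gene. The probe set with the highest mean was kept for each gene, which left 13356 genes. Of these, 13286 matched RefSeq by gene number.

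limma 3.58.1 (R 4.3.3) fitted 1 mean per group to all 12 arrays (two-sided moderated tests, Benjamini-Hochberg adjustment, threshold 0.05). The scripts were tested on simulated data. Replicate numbers were not treated as pairs. The metal sets differ in level by -1.35 in their medians, so metals were not tested. The depth of arrays is not a count, and signals near background are compressed.

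The members and gene lists were chosen with earlier results of these data known. Named were all 7 CML genes, list members past the threshold (up to 4 a list) and the 5 genes most like CML37 and CML38, by Pearson r among genes with a mean above the lower quartile. GLR1.2, GLR2.7, GLR2.8, GLR2.9, GLR3.3, GLR3.5, GLR3.6, IQD27, WRKY53, HRA1 and the tissue markers were added after their values were seen. So were the neighbouring genes AT1G76640, AT5G42370, SPP, AT1G76660, AT2G15690 and AT2G15695. Alternatives covered scaling, probe sets, dim genes, spread, weights, blocks and omitted arrays.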

Additional observations from a re-analysis of the deposited data

Results flagged for a closer look

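CML37, ZAT10 and ORA47 are listed because the test of the difference between the metal sets passed (limma, n = 3 arrays in each of 4 groups). The genotype difference of CML37 was 2.24 larger under cadmium than under arsenite on the log2 scale. Its slim1-1 arrays all lay above all wild-type arrays under cadmium (as for 15.6% of all genes) and below them under arsenite (8.25%). For ZAT10 the value was 1.35. For ORA47 it was -0.87, a call that most single-array omissions ended. The genes most like CML37 were left out of this listing, because their choice largely fixes such a difference.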

How the results depend on the processing

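The alternatives (22 within a metal, 21 for the interaction) left the CML37 calls under cadmium and in the interaction in place, as well as those of ZAT10 and, under cadmium, IQD22 and ORA47. No called difference changed sign. Of the 7 CML genes, 0 were called under arsenite, but 1 was called with array weights, 1 in the arsenite arrays alone and 1 without mutant cadmium replicate 1 and wild-type cadmium replicate 3 together (chosen after seeing the data); omitting single arrays gave 0 to 1 (1 without mutant cadmium replicate 1). Under cadmium 3 were called, and 1 to 4 with single arrays omitted (1 without mutant cadmium replicate 3 or wild-type cadmium replicate 1 or 2). In the interaction 1 was called, 2 with those arrays left out together, and 1 to 2 with single arrays omitted (2 without wild-type cadmium replicate 3). Of the 24 calcium, touch and low-oxygen genes, 0 were called under arsenite, 1 (IQD22) with array weights, and 0 with single arrays omitted. In the interaction 2 were called, 1 with a trend and robust spread, 1 without the 2 arrays together, and 1 to 2 with single arrays omitted. The cause of these changes was not tested beyond the standard errors given. With the replicate number as a block, 1 CML gene (CML37) was called under cadmium and 1 list gene (ZAT10) in the interaction. Same-numbered arrays did not deviate together (r from -0.33 to 0.10), and 3 of 12 arrays correlated best with their own number, so the numbers were not taken as pairs.

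Over all genes, 140 were called under arsenite, but 744 with array weights, 85 with the block and 14 in the arsenite arrays alone (50 to 250 with single arrays omitted). Under cadmium 1646 were called and 1019 with the block (851 to 1794 with single arrays omitted). The interaction called 574, 267 with the block and 1184 with array weights (280 to 785 with single arrays omitted). Testing all 22746 probe sets gave 296, 3227 and 1179 under arsenite, under cadmium and in the interaction. Without the 2 cadmium arrays named above, 782 were called under cadmium and 247 in the interaction. The CML37 level in wild type under cadmium lies near the lower quartile, which limits its fold.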

Other observations

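AT1G76640, which RefSeq lists with the synonym CML39 (a synonym it also gives to CML37), lies next to CML38 on the chromosome. It had 2.93, 4.01 and 3.20 in slim1-1 under cadmium and 4.05, 4.62 and 3.95 in wild type, and 8.03, 7.39 and 6.57 in slim1-1 under arsenite against 8.22, 8.28 and 8.23 in wild type. Under arsenite all mutant arrays lay below all wild-type arrays, whereas the groups overlapped under cadmium. The differences of -0.83 ± 0.33 under cadmium and -0.91 ± 0.33 under arsenite did not pass (limma, n = 3 arrays per genotype, adjusted p = 0.129 and 0.243). Their sign stayed negative in all 22 alternatives of each metal. The mean of AT1G76640 in slim1-1 under cadmium, 3.38, was at the 29.7th percentile and close to the lower quartile (3.05). The size of its cadmium difference is therefore imprecise. The interaction was 0.09 ± 0.46 (adjusted p = 0.95).

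Under cadmium 4 of 11 tested neighbours had groups that did not overlap, against 31.2% of all genes. AT5G42370 and SPP beside CML37 were higher on all slim1-1 arrays than on all wild-type arrays under cadmium, by 0.21 and 0.11, without passing (adjusted p = 0.177 and 0.324). AT1G76660, on the other side of CML38, was lower there by 0.18 on average, with groups that did not overlap (adjusted p = 0.276), and so was AT2G15695 beside CML30, by 0.15 (adjusted p = 0.251). Under arsenite 2 of 11 did, against 18.2% of all genes, AT1G76640 and AT2G15690 beside CML30, which was higher by 0.20 (adjusted p = 0.273). None of the 11 passed in any comparison in limma, with 2 at an unadjusted p under 0.05 under cadmium (26.1% of all genes), 2 under arsenite (12.8%) and 1 in the interaction (18.5%).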
